A study of Mus musculus with 4 samples.

Results

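The 9 genes of the hedgehog pathway followed here across 4 sections of mouse brain organoids are Shh, Disp2, Ptch1, Smo, Hhip, Gli1, Gli2, Gli3 and Sufu. They were chosen by symbol, matched without regard to case (the tables write SHH, DISP2, PTCH1, SMO, HHIP, GLI1, GLI2, GLI3 and SUFU), and all 9 were listed in every section, among 19783 genes listed in all 4 sections and 22218 listed in any. The organoids were grown from the mouse embryonic stem cell line CARLIN/Cas9, which carries a lineage barcode and Cas9, so every group shares that genotype and that single line. All were started in medium with SB 431542, an inhibitor of TGF-beta family receptors, then received neural induction medium, Matrigel and maturation medium with B27 lacking vitamin A. From day 9 the groups differed: VitaminA received 2% B27 with vitamin A, ATRA received all-trans retinoic acid at 1 µM, an agonist of all 3 retinoic acid receptors, BMS753 received that agonist of receptor alpha at 1 µM, and BMS961+BMS641 received agonists of receptors gamma and beta together at 0.1 µM. The dose of the last group therefore differed from the others. After 3 months, fixed organoids, several to a mold, were cryosectioned onto barcoded poly-T arrays, so that a section may hold more than 1 organoid. Each treatment had 1 section, which leaves no replicate and no test of any difference between treatments.

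Hedgehog proteins are secreted, lipid-bearing signals, and Shh (Sonic hedgehog) is the member made by the notochord and floor plate that sets out ventral cell identities in the neural tube. Without ligand, the receptor Ptch1 holds the membrane protein Smo inactive and Sufu restrains the Gli transcription factors, while ligand relieves that hold at the primary cilium. Gli2 is known mainly as the activator and Gli3 mainly as the repressor, and Gli1, Ptch1 and Hhip are themselves turned on by the pathway, which makes them its usual readouts. Retinoic acid and Shh act side by side in patterning the neural tube.

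The sections held between 365 and 593 spots. The deposited values were quantile normalised, and in each spot they rise in runs along the order of genes in the file, called steps here. Runs of ordered values also arise by chance, so the higher steps rank values and count nothing. In all but 1 spot of each section, every gene at 0 preceded the lowest step in that order, so a value in that step, called the lowest class here, was not read as detection. Per spot, a median of 4659 genes stood above the lowest class in VitaminA and of 4462 in BMS961+BMS641, against 3388 in ATRA and 3330 in BMS753. Levels are the mean signal over all spots as ppm of the section's summed signal, and the range over 4 quadrants of the section describes spread within that section alone. Of the brain markers, those of neurons were seen in 48.7%, 29.2%, 31.2% and 41.2% of spots at the median of 14 genes, in the order VitaminA, ATRA, BMS753 and BMS961+BMS641, from Nefl (3.84% to 7.95%) and Tubb3 (15.7% to 27.7%) up to Rbfox3 (87.5% to 96.6%). All 14 were listed in every section, with summed levels of 1124, 1047, 1401 and 1576 ppm, of which Stmn2 alone gave 14.3, 12.7, 40.4 and 533 ppm. Progenitor genes were seen in 13.0%, 3.71%, 5.12% and 5.48% of spots at the median of those listed. They ran from Hes5 (0.213% to 3.08%) and Nes (3.71% to 8.88%) up to Pax6 (23.4% to 38.4%) and Prom1 (34.2% to 46.8%). Summed levels of the progenitor list were 104, 53.8, 96.4 and 56.3 ppm (10 of 12 listed, but Hes1 not in BMS961+BMS641). Those of the astroglial list were 532, 260, 553 and 463 ppm (13 of 13 listed, but Fabp7 not in BMS753). Of these, Nfia alone gave 215, 128, 307 and 221 ppm, while Gfap and S100b lay between 0.451 and 3.84 ppm in every section. Summed levels of a list of epithelial and endodermal genes were 227, 164, 274 and 1641 ppm (13 of 14 listed, Krt14 in no ATRA spot). In the last section Epcam at 921 ppm and Cdh1 at 502 ppm gave most of the sum, Trp63 was at 142 ppm, Krt8 at 18.7 ppm was below its VitaminA level of 52.5 ppm, and Krt18, Krt5, Krt14, Foxa1 and Cldn6 lay between 0.066 and 3.59 ppm. The pluripotency list summed to 475, 165, 289 and 292 ppm (9 of 10 listed). A spot can hold several cells, and fewer cells of a type cannot be told apart from less RNA per cell.

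**Figure D1:**
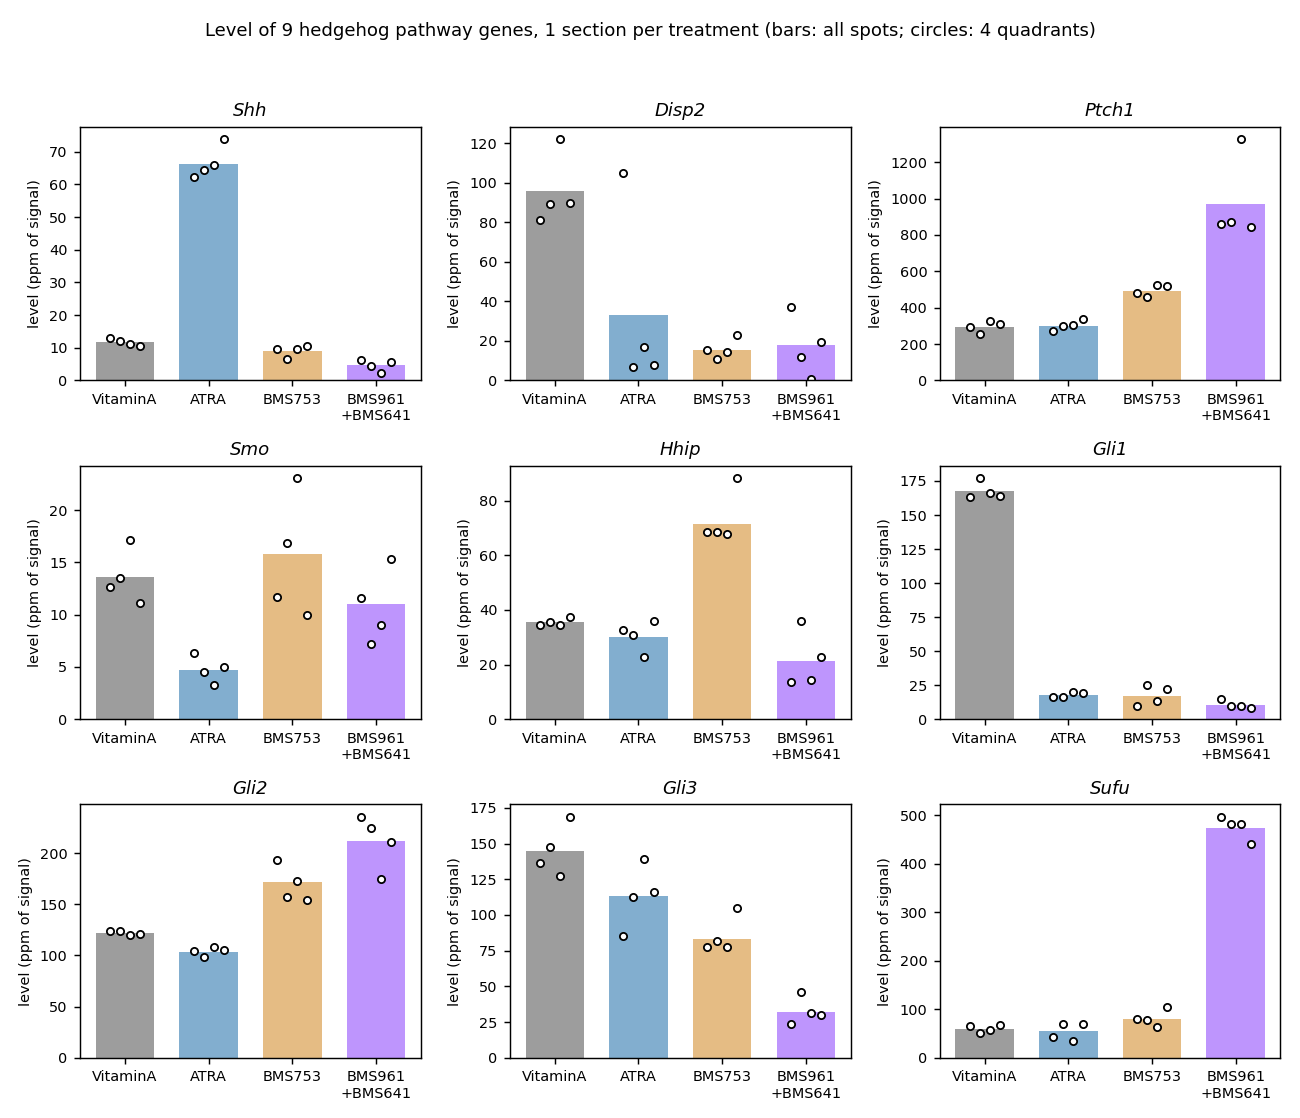
Level of each gene (ppm of the section's signal, linear axis from 0, scale set per gene) in the 4 sections; bars give the mean over all spots and circles the 4 quadrants of that section, which are no replicates. Shh stood out in ATRA (66.3 ppm), Gli1 in VitaminA (168 ppm), and Ptch1 (971 ppm) and Sufu (474 ppm) in BMS961+BMS641.

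Shh itself was highest in the ATRA section. Its level was 11.7 ppm in VitaminA, 66.3 ppm in ATRA, 9.01 ppm in BMS753 and 4.62 ppm in BMS961+BMS641. The ATRA quadrants ranged from 62.3 to 73.8 ppm and lay above every quadrant of the other sections, whose highest was 13.0 ppm. Shh was above the lowest class in 336 of 593 ATRA spots (56.7%), against 19.6% of spots in VitaminA, 15.8% in BMS753 and 15.6% in BMS961+BMS641. It reached the second step or higher in 29.8% of ATRA spots and in at most 3.44% of spots elsewhere. The high share was thus found over the ATRA section as a whole, where the 5 highest spots held 10.4% of the Shh signal. The VitaminA and BMS753 sections, next to each other in the order, overlapped in their quadrants (10.4 to 13.0 against 6.64 to 10.7 ppm). Foxa2, which marks the floor plate and is known to turn on Shh there, was under 5 ppm in every section and above the lowest class in 6.34%, 1.35%, 2.13% and 2.19% of the VitaminA, ATRA, BMS753 and BMS961+BMS641 spots. A long noncoding RNA gene whose span overlaps that of Shh, 9530036O11Rik, was at 183, 193, 255 and 112 ppm in VitaminA, ATRA, BMS753 and BMS961+BMS641, and above the lowest class in 80.4%, 72.2%, 69.5% and 66.3% of spots. Its part in the Shh signal was not tested.

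Disp2, a relative of the protein that releases hedgehog ligands from the cells that make them, was highest in VitaminA. Its level was 95.7 ppm in VitaminA, 33.3 ppm in ATRA, 15.2 ppm in BMS753 and 17.8 ppm in BMS961+BMS641, and it was above the lowest class in 42.8%, 16.2%, 15.4% and 16.2% of spots. The shares of the 3 ligand sections were thus nearly equal while their levels were not. A single spot held 59.1% of the ATRA level and another 34.8% of the BMS961+BMS641 level. Accordingly the ATRA quadrants ran from 6.80 to 105 ppm and overlapped the VitaminA quadrants (81.4 to 122 ppm). Those of BMS753 (11.1 to 23.2 ppm) and of BMS961+BMS641 (0.910 to 37.2 ppm) lay below all VitaminA quadrants.

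Among the receptors, Ptch1 was seen in more spots than any other gene of the 9 in each section, and its level was highest in BMS961+BMS641. Its level was 295 ppm in VitaminA, 300.3 ppm in ATRA, 491 ppm in BMS753 and 971 ppm in BMS961+BMS641. The quadrants of VitaminA (254 to 326 ppm) and ATRA (269 to 337 ppm) overlapped, those of BMS753 (459 to 523 ppm) lay above both, and those of BMS961+BMS641 (844 to 1327 ppm) lay above all others. The order of BMS753 over ATRA did not hold once the median of all genes was subtracted (-0.01, -0.35 to 0.60 on the log2 scale). Ptch1 was above the lowest class in 94.0%, 89.0%, 86.4% and 97.3% of spots in the same order of sections. These shares were high in every section, while the level of BMS961+BMS641 stood apart. Spots at the second step or higher made up 81.2% of the VitaminA spots, 70.3% with ATRA, 72.5% with BMS753 and 94.2% with BMS961+BMS641.

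Smo, the membrane protein that passes the signal on, was low in all sections, at 13.6 ppm in VitaminA, 4.72 ppm in ATRA, 15.8 ppm in BMS753 and 11.1 ppm in BMS961+BMS641. The ATRA quadrants (3.31 to 6.30 ppm) lay below those of the other sections, which overlapped each other between 7.19 and 23.1 ppm. Smo was above the lowest class in 12.1% of ATRA spots and in 19.0% to 25.2% of spots elsewhere. Hhip, a membrane protein that binds hedgehog ligands and keeps them from Ptch1, was highest in BMS753. Its level was 35.5 ppm in VitaminA, 30.2 ppm in ATRA, 71.7 ppm in BMS753 and 21.4 ppm in BMS961+BMS641. The BMS753 quadrants (68.0 to 88.5 ppm) lay above all others, and the remaining sections overlapped each other. It was above the lowest class in 46.3% of BMS753 spots and in 31.5% to 34.1% of spots elsewhere. Hhip stands late in the file order, and 67.5% of ATRA spots gave it a value in the lowest class, but these values made up 0.829 of its 30.2 ppm there.

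The Gli genes took different orders over the sections. Gli1, the target and activator whose RNA is the common measure of pathway activity, was at 168 ppm in VitaminA, 17.8 ppm in ATRA, 16.7 ppm in BMS753 and 10.4 ppm in BMS961+BMS641. The VitaminA quadrants ranged from 164 to 177 ppm, far above the highest quadrant elsewhere, 24.7 ppm in BMS753. It was above the lowest class in 478 of 552 VitaminA spots (86.6%), against 29.8%, 20.3% and 23.6% in ATRA, BMS753 and BMS961+BMS641. Some genes of the pluripotency list were also highest in VitaminA. Sall4 was at 144, 4.58, 24.1 and 7.72 ppm in VitaminA, ATRA, BMS753 and BMS961+BMS641. Called here means past 2-fold relative to the median of all genes. Sall4, Dppa3, Tfcp2l1 and Zfp42 were called lower than with vitamin A in all 3 comparisons, which share the VitaminA section. These were 4 of 8 genes compared in each, against 14.6%, 14.8% and 14.3% of all genes. The other genes compared from that list stayed within 2-fold, with Pou5f1 at 8.42, 7.06, 9.46 and 7.49 ppm and Esrrb at 140, 104, 169 and 218 ppm. Nanog, under 5 ppm in every section, was not compared. Lum and Acta2, which are outside that list, were called lower in all 3 comparisons too. Of the cartilage and mesenchyme list that holds Lum, 13 genes were compared, with 3, 1 and 2 called lower and 2, 1 and 1 higher. Of the muscle list that holds Acta2, 4, 5 and 4 were compared, with 2, 1 and 1 called lower and 0, 1 and 0 higher. Over all genes 12.1%, 9.06% and 13.6% were called higher. The proliferation gene Mki67 was at 12.6, 1.06, 4.17 and 1.07 ppm. Top2a, another such gene, was at 7.22, 4.28, 7.11 and 1.93 ppm and stayed within 2-fold with ATRA and BMS753. The cyclin genes Ccnd1 and Ccnd2 stayed within 2-fold in all 3 comparisons. The part of all these genes in the Gli1 difference was not tested. The ligand sections could not be ordered, except that all BMS961+BMS641 quadrants (8.16 to 14.7 ppm) lay below those of ATRA (16.1 to 19.8 ppm). Arhgap9, a protein-coding gene whose span overlaps that of Gli1, was at 11.8, 33.1, 9.03 and 5.56 ppm in VitaminA, ATRA, BMS753 and BMS961+BMS641. It was above the lowest class in 17.9%, 29.8%, 11.7% and 12.1% of spots, and its part in the Gli1 signal was not tested. Whether the counting used strand is not given in the sources used here.

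Gli2, the main activator, was at 122 ppm in VitaminA, 104 ppm in ATRA, 172 ppm in BMS753 and 211 ppm in BMS961+BMS641. The quadrants of ATRA (98.2 to 108 ppm) lay below those of VitaminA (120.2 to 124 ppm), an order that turns once the median of all genes is subtracted (0.09, 0.02 to 0.18 on the log2 scale), while BMS753 (154 to 193 ppm) and BMS961+BMS641 (175 to 236 ppm) lay above both and overlapped each other. With that median subtracted, the order of BMS753 over ATRA did not hold (0.01, -0.23 to 0.32). Gli2 was above the lowest class in 73.4%, 59.2%, 67.2% and 92.1% of spots. Gli3, the main repressor, was highest in VitaminA and lowest in BMS961+BMS641, running from 145 ppm in VitaminA through 114 ppm in ATRA and 83.1 ppm in BMS753 to 32.2 ppm in BMS961+BMS641. Neighbours in that order overlapped between VitaminA (127 to 169 ppm) and ATRA (85.2 to 139 ppm) and between ATRA and BMS753 (77.3 to 105 ppm), but the BMS961+BMS641 quadrants (23.6 to 46.1 ppm) lay below all others. Its share of spots was 85.0%, 71.3%, 61.4% and 55.6%.

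Sufu, the protein that holds Gli factors in check, was at 60.2 ppm in VitaminA, 54.6 ppm in ATRA, 79.6 ppm in BMS753 and 474 ppm in BMS961+BMS641. The BMS961+BMS641 quadrants ranged from 441 to 498 ppm, and the other 3 sections overlapped each other between 34.1 and 104 ppm. Sufu was above the lowest class in 97.0% of BMS961+BMS641 spots and in 60.0%, 53.3% and 53.1% of VitaminA, ATRA and BMS753 spots. The 5 highest spots held 7.62% of its signal in BMS961+BMS641, so the level was spread over the section.

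**Figure D2:**
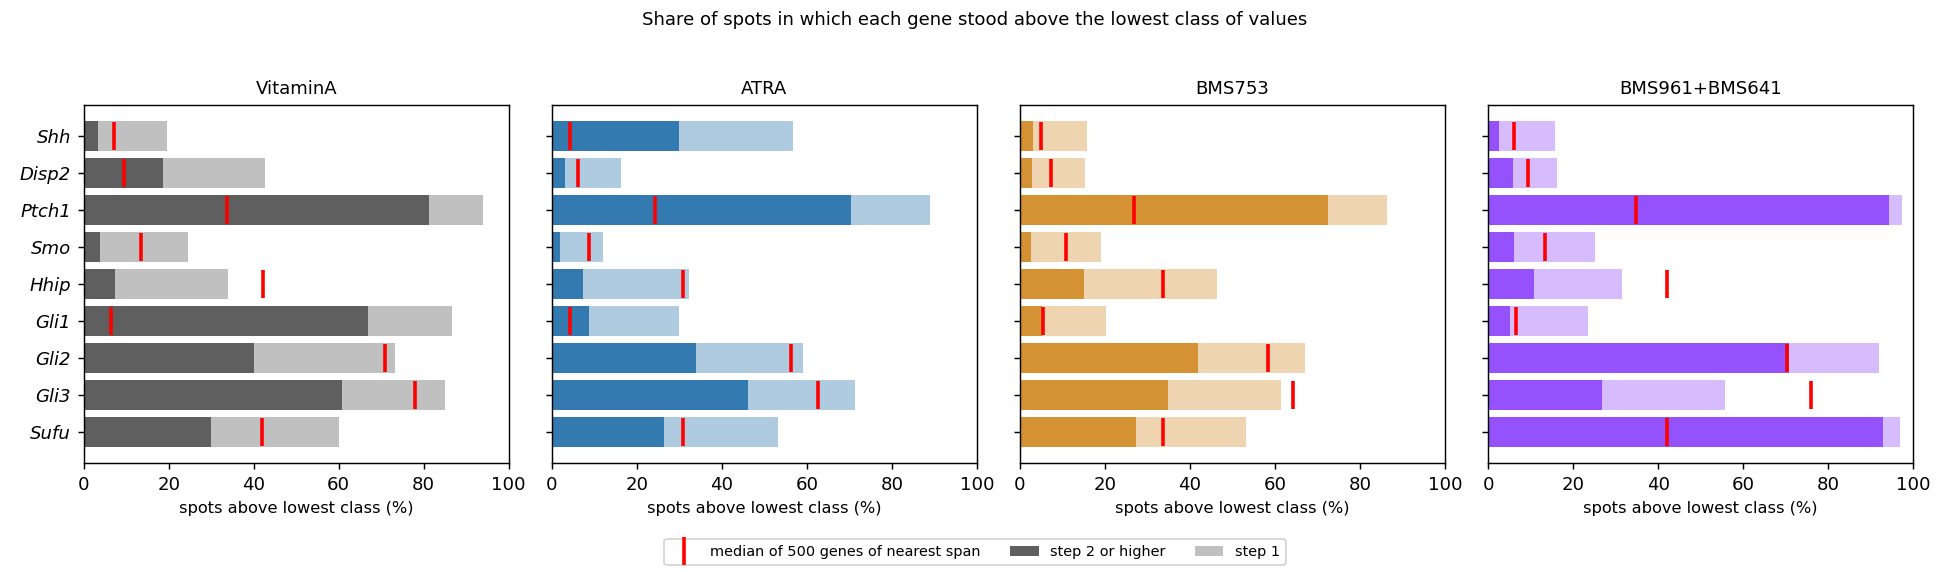
Share of spots (%, from 0 to 100) in which each gene stood above the lowest class of values, with spots at the second step or higher in the dark part of the bar and spots at the first step in the light part; red ticks give the median share of the 500 genes nearest in genomic span. Ptch1 lay far above its tick in all 4 sections, while Gli3 in BMS961+BMS641 (55.6%) lay below its tick (76.0%).

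Levels of different genes were set against each other per kb of genomic span, taken from the RefSeq annotation of GRCm38.p6 since none of mm9 was used here, because genes of wide span are seen in more spots in these files. In VitaminA, Gli1 had 14.4 ppm per kb, Disp2 6.18, Ptch1 4.52 and Shh 1.14, and the other 5 genes had between 0.385 and 0.655 ppm per kb. In BMS961+BMS641, Ptch1 led with 14.9 ppm per kb, followed by Sufu with 5.16, and in ATRA Shh led with 6.46 ppm per kb ahead of Ptch1 with 4.61. In BMS753 Ptch1 led with 7.54 ppm per kb, and no other gene of the 9 was above 1.43. Among the 500 genes nearest to it in span, Ptch1 had a higher share of spots than 98.4% of them in VitaminA, 98.2% in ATRA, 99.6% with BMS753 and 99.4% with BMS961+BMS641. Gli3 ranked above 68.2%, 65.8%, 42.6% and 12.0% of such genes in the same order, and Gli1 above 99.2%, 96.2%, 96.2% and 88.8%. Sufu ranked above 77.2%, 83.6%, 88.6% and 99.0%. Gli1 and Ptch1 were thus seen widely for their span in all sections, whatever their order between sections.

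Ratios between sections are log2 ratios of ppm with a pseudocount of 1 ppm, over genes that reach 5 ppm in at least 1 of the sections set against each other, minus the median over all such genes. That median was -0.33 for ATRA over VitaminA, 0.31 for BMS753 over VitaminA, -0.25 for BMS961+BMS641 over VitaminA and 0.71 for BMS753 over ATRA. The pseudocount understates ratios of low genes such as Smo. A ratio is called here when it passes 2-fold in either direction. The 3 comparisons with VitaminA share that section, so Gli1 and Disp2, highest in it, were low in each of them. In parentheses stands the lowest and highest ratio among the 16 quadrant pairs.

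With ATRA, the ligand gene was higher and the target gene Gli1 lower than with vitamin A. Shh had a relative log2 ratio of 2.73 (2.45 to 3.02) and Gli1 of -2.84 (-3.11 to -2.66), which are 6.64-fold and 7.14-fold. Disp2 (-1.17, -3.60 to 0.64) and Smo (-1.02, -1.77 to -0.49) also passed 2-fold downward. Without the highest 2% of spots of each gene, Disp2 was at -3.09, and Smo passed 2-fold in 7 of the 13 other settings that kept it. Thus 1 of 9 genes was called higher, against 12.1% of all 14794 genes compared, and 3 of 9 lower, against 14.6%. The quadrants' levels did not overlap for 4 genes, against 49.2% of all genes, and these were Shh, Smo, Gli1 and, with the sign that turns on centring, Gli2. The other 5 genes lay between -0.02 for Gli3 and 0.36 for Ptch1, with the known targets Ptch1 and Hhip (0.11) among them, and the median of the 9 was 0.09.

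With BMS753, no gene of the 9 was called higher than with vitamin A, where 9.06% of all 15676 genes were, and 3 were called lower, where 14.8% of all genes were. Gli1 had -3.56 (-4.40 to -2.92), or 11.8-fold, Disp2 -2.89 (-3.70 to -1.86) and Gli3 -1.10 (-1.43 to -0.38). Gli3 passed 2-fold in 8 of 14 other settings. Hhip had 0.69 (0.52 to 1.27) and Ptch1 0.43 (0.14 to 1.01), so that these targets of the pathway lay above the median gene while Gli1 lay far below it. The quadrants' levels did not overlap for 6 of the 9 genes, against 38.1% of all genes, with Ptch1, Hhip and Gli2 higher and Disp2, Gli1 and Gli3 lower. The median of the 9 was -0.11.

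With BMS961+BMS641, 6 of the 9 genes were called, 3 in each direction, against 13.6% of all 14959 genes higher and 14.3% lower. Sufu had 3.21 (2.93 to 3.75), or 9.28-fold, Ptch1 1.97 (1.57 to 2.60) and Gli2 1.04 (0.68 to 1.39). Gli1 had -3.63 (-3.94 to -3.19), or 12.4-fold, Disp2 -2.11 (-5.86 to -0.91) and Gli3 -1.88 (-2.63 to -0.98). Gli2 passed 2-fold in 11 of 14 other settings, and as the share of spots Ptch1 was at 0.10, Sufu at 0.74 and Gli3 at -0.55. Shh had -0.93 (-1.91 to -0.52), Hhip -0.45 and Smo -0.02. The quadrants' levels did not overlap for 7 genes, all but Smo and Hhip, against 46.8% of all genes. The median of the 9 was -0.45. The same section held Epcam and Cdh1 at the high levels given above. Of 7 epithelial and endodermal genes compared, 4 were called higher there and Krt8 lower (-1.19), and their part in these ratios was not tested.

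**Figure D3:**
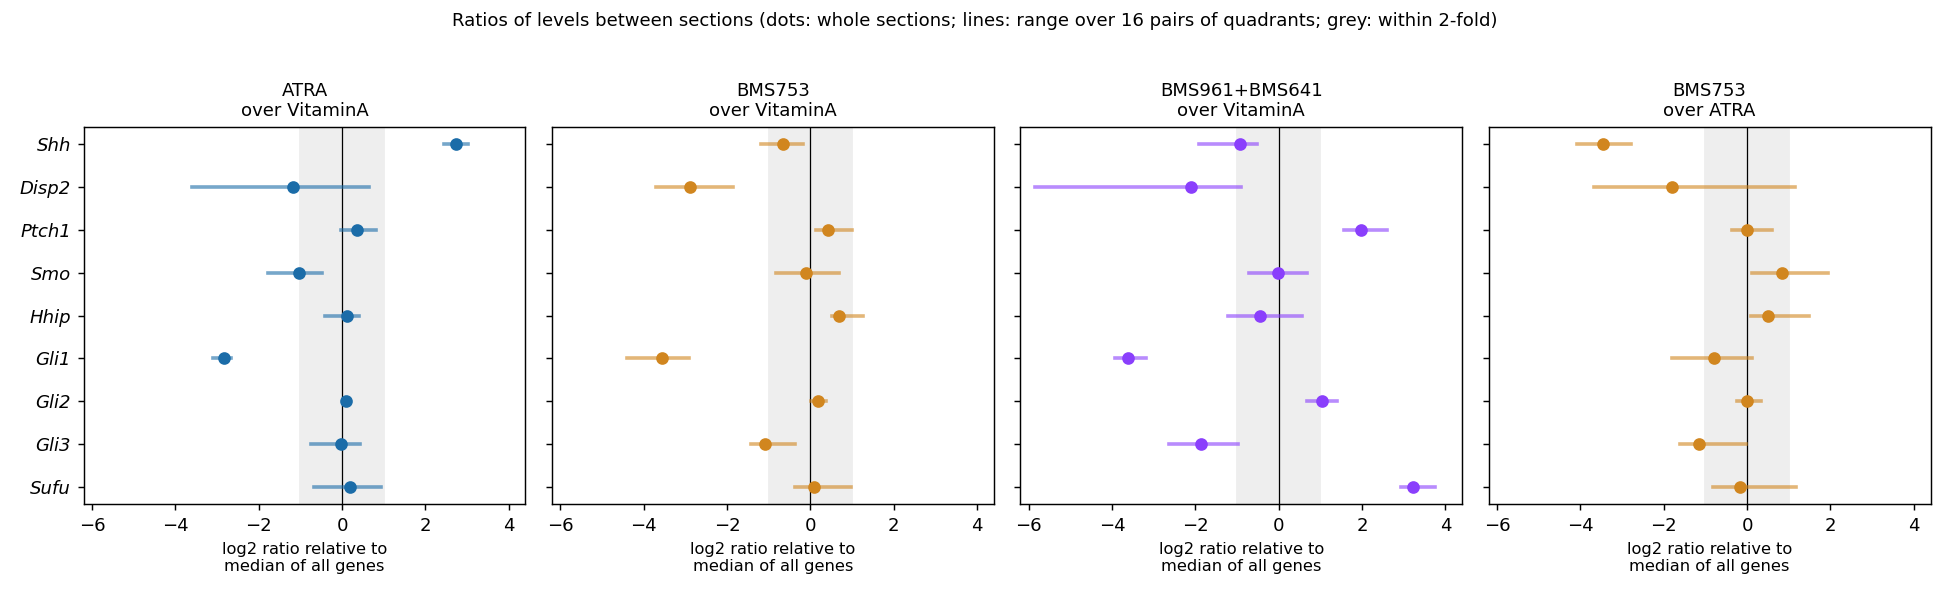
Log2 ratios of levels between sections (x axis, relative to the median of all genes compared) for the 9 genes; dots are whole sections, lines the range over 16 pairs of quadrants, and grey the zone within 2-fold. Gli1 lay at -2.84, -3.56 and -3.63 in the comparisons with VitaminA, and the widest lines are those of Disp2.

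Sequence just before and after the annotated start was looked up for the genes called higher with BMS961+BMS641, which share that call and no more. Over the spots of that section the Spearman correlation was -0.09 for Ptch1 and Sufu, -0.04 for Ptch1 and Gli2 and 0.05 for Gli2 and Sufu. Each window runs from 250 bases before to 50 after the start, from the RefSeq annotation of GRCm38.p6, 5′ to 3′ on the gene's strand. Windows for 6 of the 9 genes were at hand. Capitals mark ACCACCC, the core of the sequence that Gli proteins bind, and CCGCCC, a GC box core bound by Sp1, on either strand. Ptch1 is at chr13:63565686-63565985 on the minus strand, Gli2 at chr1:119053570-119053869 on the minus strand and Sufu at chr19:46396646-46396945 on the plus strand.
Ptch1: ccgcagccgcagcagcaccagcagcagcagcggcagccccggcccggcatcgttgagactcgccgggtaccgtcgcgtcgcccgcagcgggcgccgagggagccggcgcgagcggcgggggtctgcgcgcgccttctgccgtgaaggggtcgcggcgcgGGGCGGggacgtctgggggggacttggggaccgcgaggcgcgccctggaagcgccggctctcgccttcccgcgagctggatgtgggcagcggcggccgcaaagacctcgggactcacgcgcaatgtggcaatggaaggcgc
Gli2: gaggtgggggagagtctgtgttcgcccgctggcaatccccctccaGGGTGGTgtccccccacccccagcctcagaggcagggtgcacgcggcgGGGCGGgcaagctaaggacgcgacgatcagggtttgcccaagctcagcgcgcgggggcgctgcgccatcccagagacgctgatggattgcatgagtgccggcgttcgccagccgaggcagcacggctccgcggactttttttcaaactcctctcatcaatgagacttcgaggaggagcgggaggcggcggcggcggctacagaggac
Sufu: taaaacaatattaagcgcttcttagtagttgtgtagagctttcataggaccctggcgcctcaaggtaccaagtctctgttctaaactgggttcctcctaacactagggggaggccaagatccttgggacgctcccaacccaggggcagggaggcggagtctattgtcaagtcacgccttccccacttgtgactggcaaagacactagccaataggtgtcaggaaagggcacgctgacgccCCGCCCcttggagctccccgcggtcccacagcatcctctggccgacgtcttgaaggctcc

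The full Gli consensus GACCACCCA was in none of the 6 windows and in 0.253% of all 32851 windows of this length. Its core ACCACCC was in the Gli2 window alone, beside 4.61% of all windows, and CCGCCC was in 5 of 6, all but Smo, beside 35.7% of all windows. The GC content of these windows was 76.3% for Ptch1, 67.3% for Gli2 and 56.3% for Sufu, where the median of all windows was 52.7%. AGGTCA, the unit that is repeated in retinoic acid response elements, was in none of the 6 and in 16.3% of all windows. A match describes letters and no binding, and the windows leave out more distant sequence.

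The agonist of receptor alpha and the pan-receptor agonist were given at the same dose. With BMS753 over ATRA, 3 of 9 genes were called lower, against 14.6% of all 14902 genes, and none higher, against 6.77%. Shh had -3.46 (-4.09 to -2.78), or 11.0-fold, Gli3 -1.16 (-1.61 to -0.04) and Disp2 -1.80 (-3.68 to 1.16), the last of which was at -0.10 without the highest 2% of spots of each gene. Gli3 passed 2-fold in 10 of 14 other settings. Ptch1 (-0.01), Gli2 (0.01), Sufu (-0.18), Hhip (0.50), Smo (0.84) and Gli1 (-0.80) stayed within 2-fold. The quadrants' levels did not overlap for 5 of the 9, against 44.2% of all genes, with Shh lower and Ptch1, Smo, Hhip and Gli2 higher before the median of all genes was subtracted. BMS961+BMS641, at a lower dose, is set beside them by its levels alone, with Shh at 4.62 ppm, Sufu at 474 ppm and Ptch1 at 971 ppm.

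For 5 of the 9 genes the highest section lay 2-fold or more above each of the others, counted on levels centred on the medians above. Over all 15841 genes of at least 5 ppm in any section, 23.6% did so. VitaminA was that section for Gli1 and Disp2 (6.82% of all genes), ATRA for Shh (6.81%) and BMS961+BMS641 for Ptch1 and Sufu (7.42%), while BMS753 was so for none of the 9 (2.59%). The gap between the highest and the next section was 3.02 for Sufu, 2.83 for Gli1 and 2.74 for Shh on the log2 scale, and gaps as wide were found for 3.91%, 4.63% and 5.07% of all genes.

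**Figure D4:**
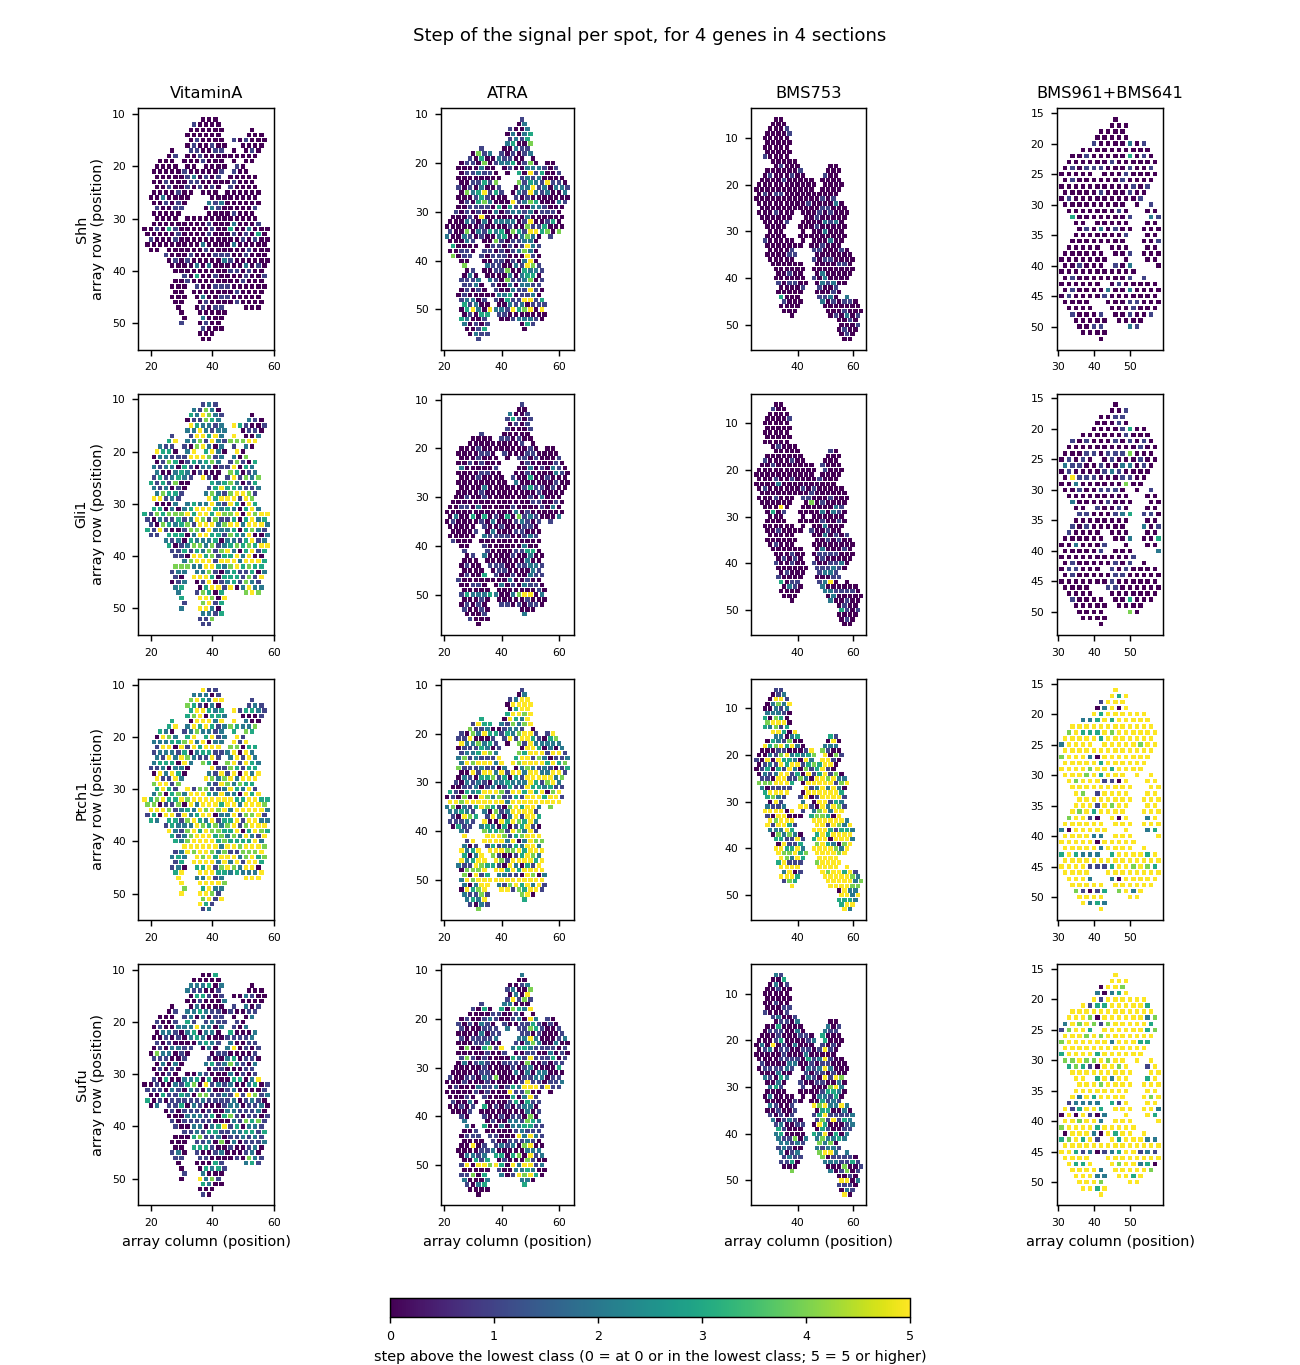
Spots of the 4 sections at their array positions (rows and columns), coloured by the step of the signal for Shh, Gli1, Ptch1 and Sufu; step 0 holds spots at 0 or in the lowest class, and 5 holds all higher steps, which rank values and count nothing. Shh in ATRA, Gli1 in VitaminA and Sufu in BMS961+BMS641 were seen over the whole section, above the lowest class in 56.7%, 86.6% and 97.0% of spots.

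Within sections, adjacent spots were little alike once the spot factor was divided out, but single lines of the array had more genes above the lowest class. Moran's I over 8 grid neighbours, a measure of likeness between adjacent spots that is near 0 without order, ranged from -0.04 for Shh in BMS961+BMS641 to 0.05 for Sufu in BMS753. Moran's I does not show bands of 1 line. On each axis of each array, the line with the most genes above the lowest class (5 spots or more) was taken, which was line 50 in 5 of the 8 cases. The 9 genes had a higher mean step in that line than elsewhere in 69 of 72 pairs of gene and line. The line was picked for its many genes above the lowest class, so such a count is high by that choice. It was not made over all genes and shows nothing particular to the 9. In y line 50 of ATRA, Shh had a mean step of 4.5 against 1.07 elsewhere and Gli1 of 1.60 against 0.38. That line had a mean of 8014 genes above the lowest class against 3503 elsewhere. Without these lines, all 16 calls were kept. Ptch1 was lower in edge spots, which have fewer than 6 of the 8 neighbours, than in interior spots in all 4 sections, by log2 differences of -0.26 to -0.02. Edge and interior differed in both directions over the sections for the other 8 genes.

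Between pairs of the 9 genes, the Spearman correlation over spots had medians of 0.024 (VitaminA), 0.094 (ATRA), 0.075 (BMS753) and 0.059 (BMS961+BMS641), over 36 pairs each. The highest value, 0.198, was that of Shh and Smo in BMS961+BMS641, which share the depth of their spots. In the median spot, 5 of the 9 genes stood above the lowest class in VitaminA and 4 in the other sections. This number rose with the number of all genes above that class, with a Spearman correlation between 0.662 and 0.797. Likeness of signal over spots was measured by the mean Spearman correlation of 4 sections, among 4860 other genes. For Ptch1, Mrnip (0.349) was among the 2 most similar genes, and for Hhip, Trp73 was. For Gli1, Gli2, Gli3 and Sufu the leading genes, in pairs, were Fbxl7 and Cdh10, Otogl and Rab11fip4, Agps and Retreg1, and Ephb1 and Myof. For these and for Hhip the means were only 0.123 to 0.207.

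The wider pathway held genes called in both directions, with more lower than higher in all 3 comparisons, as over all genes, and most so with BMS753. Of all wider list genes together, 9 of 69 were called higher and 10 lower with ATRA, 3 of 71 and 19 with BMS753, and 6 of 70 and 11 with BMS961+BMS641. Over all genes the shares were 12.1%, 9.06% and 13.6% higher and 14.6%, 14.8% and 14.3% lower, and the counts of each list below read against these. Beyond the 9 genes, 3 lists of ligand and release genes, receptors and co-receptors, and signal transducers held 31 genes compared with ATRA, 33 with BMS753 and 32 with BMS961+BMS641. Of these, 3, 1 and 4 were called higher than with vitamin A and 1, 7 and 4 lower, at medians of 0.01, -0.01 and -0.10. Hhat, which attaches the lipid to hedgehog ligands, was at 780.1 ppm in ATRA against 171 ppm in VitaminA and had a relative log2 ratio of 2.52, beside Shh in the same section. Prkaca, a catalytic subunit of the kinase that marks Gli proteins for processing, had 2.06 with BMS961+BMS641. Prkar1a, a regulatory subunit of that kinase, had 2.46 with BMS753, at 35.4 ppm against 4.34 ppm. Csnk1a1 and Csnk1d, also of the signal transducers, were called lower with BMS753 (-1.23 and -1.04) and with BMS961+BMS641 (-1.25 and -1.33). The ligand gene Ihh was at 5.58, 9.52, 3.40 and 7.66 ppm in VitaminA, ATRA, BMS753 and BMS961+BMS641. Dhh, a further ligand gene, was called lower in all 3 comparisons, at 13.9 ppm in VitaminA and at 2.78, 7.01 and 4.05 ppm with ATRA, BMS753 and BMS961+BMS641.

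Of 12 further Gli targets compared in each, 2 were called higher and 3 lower with ATRA, none higher and 5 lower with BMS753, and none higher and 3 lower with BMS961+BMS641. Igfbp4, which encodes a binding protein of insulin-like growth factors, was at 413 ppm in ATRA against 24.0 ppm in VitaminA (4.38). Mycn, a proliferation factor of neural progenitors that Shh induces, was at 16.0 ppm in VitaminA and at 0.417, 1.58 and 1.13 ppm in ATRA, BMS753 and BMS961+BMS641, with ratios of -3.25, -3.03 and -2.74. Mycn was above the lowest class in 28.8% of VitaminA spots and in at most 6.03% elsewhere. VitaminA was thus its highest section, as for Gli1, Sall4, Dppa3, Tfcp2l1, Zfp42, Lum and Acta2. Apart from Mycn and Gli1, these genes were picked after their values were seen. Of all genes, 6.82% were 2-fold or more higher in VitaminA than in each other section.

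Genes of the primary cilium, the organelle in which Smo acts, went both ways. Of 27 compared, 4 were called higher and 6 lower with ATRA, 2 and 7 with BMS753, and 2 and 4 with BMS961+BMS641. Ift88, which encodes a carrier protein of the cilium that hedgehog signalling needs, was at 710.0 ppm in ATRA against 33.2 ppm in VitaminA (4.71), and above the lowest class in 96.6% against 32.6% of spots. Ttc21b, another protein of that transport, was called lower in all 3 comparisons (-1.89, -2.12 and -1.98) and Ift27 higher in all 3 (1.44, 1.01 and 2.41). Of the ventral neural tube list without Shh, 12, 12 and 11 genes were compared, of which 1, 0 and 2 were called higher and 1, 3 and 3 lower. Lmx1a, a regulator of roof plate and midbrain floor plate, was at 467 ppm in BMS961+BMS641 against 97.5 ppm in VitaminA (2.50), and Dbx2, of interneuron progenitors, had 2.23.

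**Figure D5:**
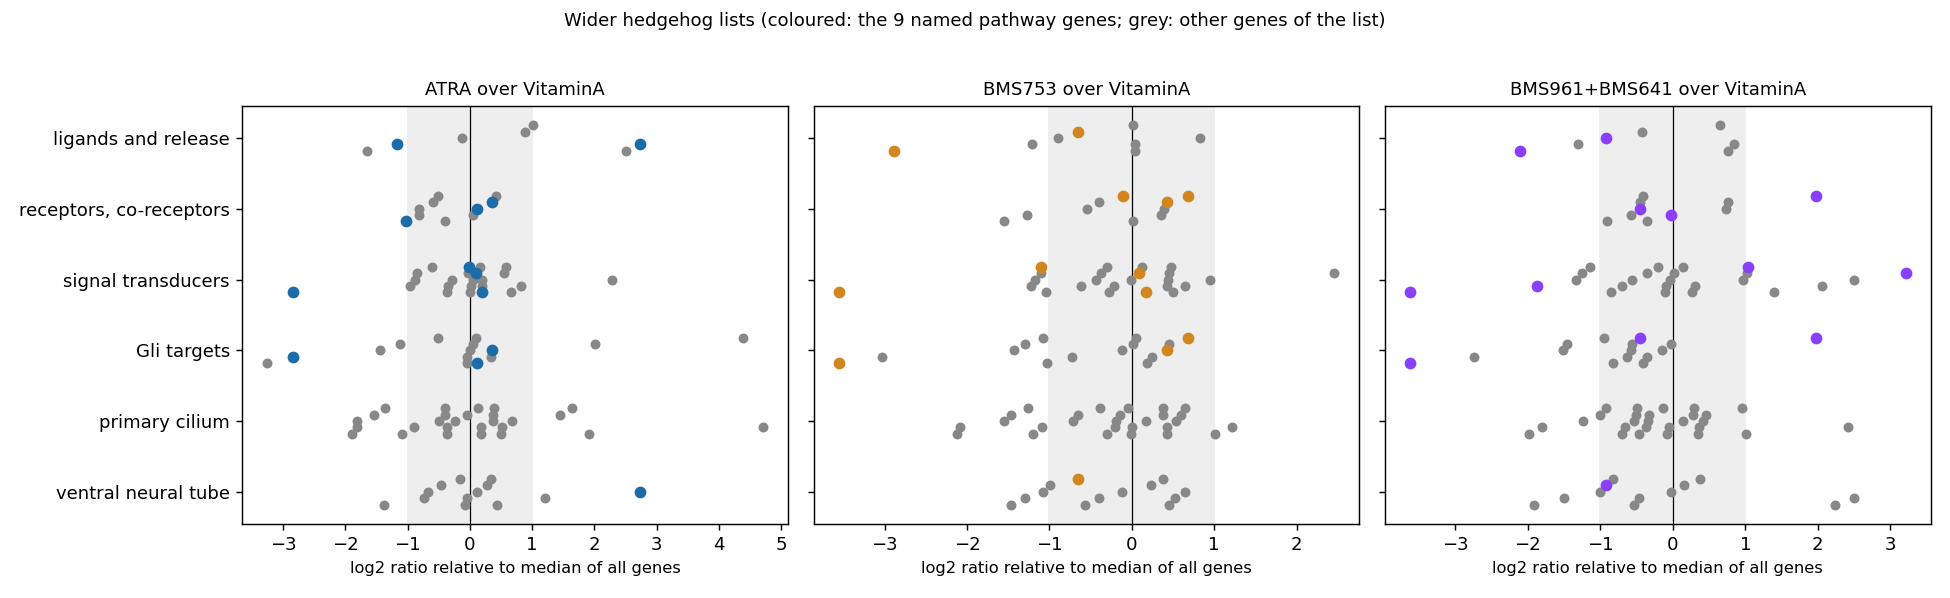
Log2 ratios over VitaminA (x axis, relative to the median of all genes compared; scales differ between panels) of the genes of 6 lists, with the 9 named genes in colour, the other genes in grey and the zone within 2-fold shaded. Genes lie on both sides of 0 in every list, with Ift88 (4.71) and Igfbp4 (4.38) farthest out with ATRA and Gli1 farthest down with BMS753 (-3.56) and BMS961+BMS641 (-3.63).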

How the data were processed

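The 4 deposited tables hold signal values with genes in rows and spots in columns. The authors had quantile normalised them, per the file names, and used mm9, per the submitters' processing notes. No aligner, counting tool or spot filter is given in the sources used here. Sorted, the values of any spot equal those of another in that section up to a constant factor. The files hold no counts, so depth is unknown and no counting interval is given. No symbol had several rows.

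The genes and lists were chosen with earlier results of these data known. The rule named the 9 genes throughout, the 3 other list genes with the widest ratios per comparison, and the 2 genes most like each of the 9 over spots, for genes seen in at least 20% of spots of every section. Hhat, Prkaca, Csnk1a1, Csnk1d, Ihh, Dhh, Foxa2, Rbfox3 and the other marker genes, Lmx1a, Dbx2 and the overlapping genes were chosen after their values were seen. So were Ccnd1, Ccnd2, Ift80 and Cep290. Levels, ratios, quadrants (split at the median x position on the array, then y) and 14 other settings, of which 4 were chosen after the data were seen, were computed in Python (numpy 2.4.6, scipy 1.17.1, pandas 2.3.3). Known changes put into simulated tables were used to check the code. Results of a few genes that the rule named are not reported here.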

Additional observations from a re-analysis of the deposited data

How the results depend on the processing

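Of the 16 called ratios of single genes over the 4 comparisons, all kept their direction in each of the other settings run. Of these, 7 also stayed past 2-fold in each setting, namely Shh and Gli1 wherever called and Disp2 with BMS753 and BMS961+BMS641 over VitaminA. Called genes with ATRA over VitaminA numbered 4, but 2 by the share of spots and 2 with the lowest class at 0. With BMS961+BMS641 over VitaminA they numbered 6, but 2 by the share of spots. With BMS753 over ATRA they numbered 3, but 1 by the share of spots, 1 with each spot divided by its sum and 1 by the mean step, whose higher steps cannot be told from chance runs. The median of the 9 genes moved with the setting. Without subtracting the median of all genes it was -0.24 for ATRA over VitaminA, 0.20 for BMS753 over VitaminA and 0.54 for BMS753 over ATRA. With the lowest class at 0 it was 0.35 for ATRA and 0.21 for BMS753 over VitaminA. By the mean step it was 0.32 for ATRA and 0.038 for BMS961+BMS641 over VitaminA, and by the share of spots -0.056 for the latter. For BMS753 over VitaminA it was -0.30 with each spot divided by its sum and -0.34 without the highest 2% of spots of each gene. The cause of these shifts was not tested. No paired analysis was possible because each treatment has 1 section.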
